A study of Sus scrofa with 15 samples.

Results

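HSD3B1 and SULT2A1, genes of steroid synthesis and of steroid conjugation, were followed in the backfat of castrated male pigs. They are 2 of the 1260 genes named in the table, and every probe set whose single annotated symbol is HSD3B1 or SULT2A1 was taken, 3 of 3255 tested. HSD3B1 (NCBI gene 445539) has 2, Ssc.14393.1.S1_at and Ssc.14393.2.S1_x_at, called here the first and the second, and SULT2A1 (NCBI gene 641359) has 1, Ssc.1332.1.S1_at. An ending of x_at marks an Affymetrix probe set in which some probes also match other transcripts. HSD3B1 was chosen by its signal difference between diets in these animals and SULT2A1 was chosen by its slope on live weight in them. The diet difference of HSD3B1 and the weight slope of SULT2A1 are therefore given as descriptions, without a test.

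The study compared 8 animals on a high oleic diet, enriched in oleic acid, with 7 on a standard control diet, with 1 array per animal. All 15 were Iberian, castrated males, assigned at 28 kg live weight and fed for 24 weeks until slaughter near 110 kg. The high-oleic feed held 3360 kcal and the control feed 3130 kcal of crude energy per kg, and control animals received 10% more feed so that energy and protein intake were matched. The samples were the inner layer of backfat at the last rib. The labels used here give no age, litter, pen or scan date.

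HSD3B1 encodes the dehydrogenase and isomerase that turns pregnenolone into progesterone and dehydroepiandrosterone into androstenedione, a step shared by all routes to active steroid hormones. SULT2A1 encodes a sulfotransferase that adds a sulfate group to hydroxysteroids such as dehydroepiandrosterone, which makes them water-soluble and hormonally inactive. In pigs both enzymes are known for acting on androstenone, the testicular steroid that collects in the fat of entire boars. Castrated males lack the testicular source of these steroids, and fat tissue can convert steroids that reach it from the blood.

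Values are log2 signals per probe set, so a difference of 1 is a 2-fold difference. Array medians lay between 6.39 and 6.67. Of 17 adipocyte markers written for a check of the tissue, LEP, PNPLA2 and RBP4 were in the table and the other markers were not analysed here. High-oleic animal 2 and control animal 1 stood apart in interferon-induced genes, with list scores of 3.04 and 3.19 against at most 0.20 elsewhere, and high-oleic animal 8 had the highest signal of transcripts spiked into the RNA, at 7.29 against at most 6.50. In bulk tissue, fewer cells of a type and less RNA per cell cannot be told apart.

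HSD3B1 had higher mean signal on the high-oleic diet with both of its probe sets. The second probe set was lowest at 7.00, had a median of 8.56 and was highest at 9.23 in high-oleic animals, against 5.80, 7.39 and 8.61 in control animals. Of the 8 high-oleic animals 4 lay above every control animal, 7 lay at 8.33 or more, and animal 6, the lowest, lay under the control median. Among control animals, animal 1 reached 8.61 and animals 5 and 6 stood lowest, at 5.80 and 5.82. The mean was 8.46 ± 0.67 (SD, n = 8) on the high-oleic diet and 7.14 ± 1.05 (SD, n = 7) on the control diet, 1.33 apart (SE 0.40).

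The first probe set gave a dimmer signal with the same direction. It was lowest at 3.78, had a median of 4.46 and was highest at 5.35 in high-oleic animals, against 3.29, 3.81 and 4.38 in control animals. Again 4 of 8 high-oleic animals lay above every control animal, and animals 2, 3 and 7 did so on both probe sets. The means were 4.53 ± 0.54 (SD, n = 8) on the high-oleic diet and 3.75 ± 0.38 (SD, n = 7) on the control diet, 0.78 apart (SE 0.26). In 1 high-oleic animal and 4 control animals this probe set lay under the tenth percentile of the array, and with a floor at that percentile the difference was 0.58. No animal was under that percentile for the second probe set. Of 3255 probe sets limma placed 0, or 0%, past an adjusted p of 0.05 between diets, and 128, or 3.93%, had an unadjusted p under 0.05. By size, the 2 differences ranked 9 and 88 among the 3255, which follows in part from the choice of HSD3B1 by this difference.

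**Figure D1:**
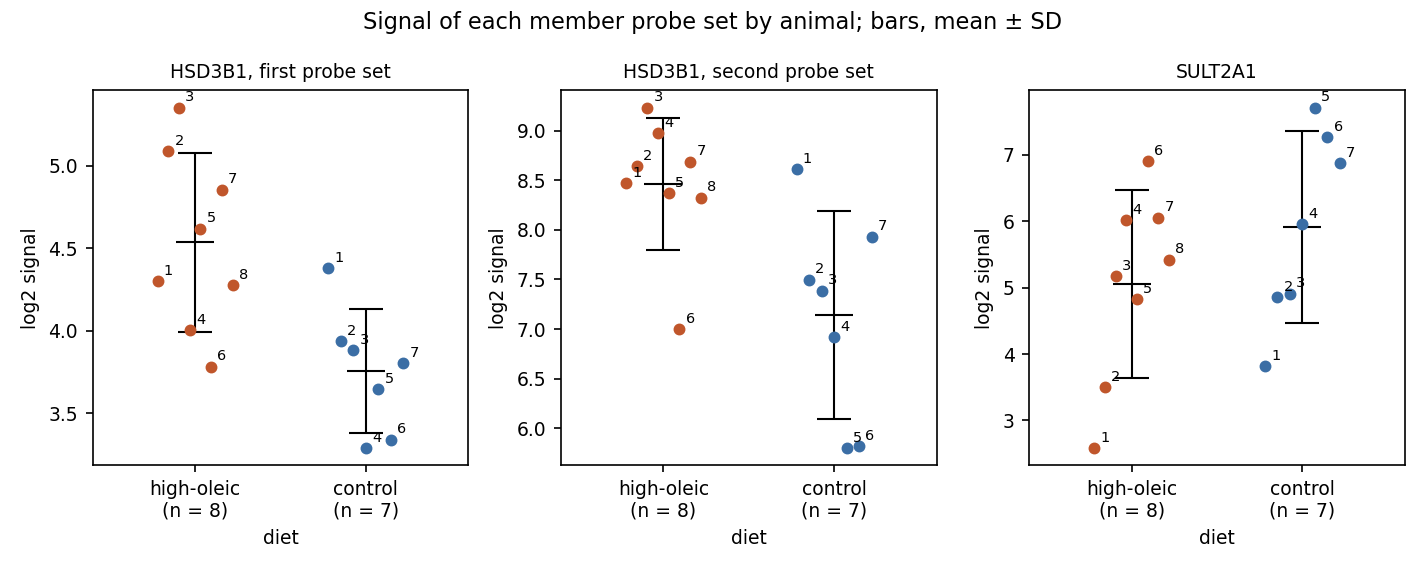
Log2 signal of the 2 HSD3B1 probe sets and of SULT2A1 in each animal (points, numbered as in the labels), by diet, with the mean ± SD of the group as bars. High-oleic animals average 8.46 and control animals 7.14 on the second HSD3B1 probe set, and the diets overlap in all 3 panels.

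Live weight differed between the diets. It was 109.2 kg on average on the high-oleic diet and 117.2 kg on the control diet, a difference of -8.03 kg (two-sided exact permutation p = 0.00435 over 6435 splits). With live weight in the fit, the HSD3B1 difference was 0.75 on each probe set, with SE 0.47 for the second and SE 0.34 for the first. Without control animal 5, the heaviest at 133 kg, that fit gave 0.89 for the second probe set and 0.79 for the first. Between 109.5 and 118 kg, where 4 high-oleic and 6 control animals remained, the differences were 1.46 and 0.93 with no weight term. All 4 probe sets of the 3 adipocyte markers had higher means on the high-oleic diet (median of the differences 0.57), though 0 of the 4 passed the test, and their part in the HSD3B1 difference was not tested. Their summed linear signal ranged from 2915 to 6926 in high-oleic animals and from 2033 to 5644 in control animals.

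The slope of HSD3B1 on live weight was not used to choose it and did not pass the test on either probe set. At fixed diet the slope was -0.72 per 10 kg for the second probe set (95% interval -1.46 to 0.02, limma adjusted p = 0.916) and -0.035 for the first (95% interval -0.58 to 0.51, adjusted p = 0.982). Of the 3255 probe sets limma placed 0, or 0%, past the threshold for this slope, and 124, or 3.81%, at an unadjusted p under 0.05. The slope of the second probe set was -0.40 when control animal 5 was left out, -0.998 without the heaviest animal of each diet and -1.62 between 109.5 and 118 kg. That of the first was -0.30 without those 2 animals and -0.40 between 109.5 and 118 kg. For the second probe set the slope was 0.50 (SE 0.72) among high-oleic animals alone and -1.05 (SE 0.37) among control animals alone. The difference between these slopes was 1.55 (95% interval -0.14 to 3.24, adjusted p = 0.942) and did not pass either. Limma placed 0 of 3255 probe sets, or 0%, past the threshold for this difference, and 162, or 4.98%, at an unadjusted p under 0.05. Without control animal 5 that difference was 3.42.

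SULT2A1 varied more between animals than most probe sets in the table. Its log2 signal spanned 5.13 units over the 15 animals, rank 56 of 3255, against a median span of 2.01 over all of them. It was lowest at 2.58, had a median of 5.30 and was highest at 6.90 in high-oleic animals, against 3.82, 5.96 and 7.71 in control animals. High-oleic animals 1 and 2 lay below every control animal, control animals 5 and 6 lay above every high-oleic animal, and the other 11 animals overlapped. In 2 high-oleic animals and 1 control animal the signal was under the tenth percentile of the array.

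The diet difference of SULT2A1, which was not used to choose it, did not pass the test. The mean was 5.06 ± 1.42 (SD, n = 8) on the high-oleic diet and 5.92 ± 1.44 (SD, n = 7) on the control diet. The difference was -0.85 (95% interval -2.14 to 0.43, limma adjusted p = 0.999), and the two-sided exact permutation test gave p = 0.265. That interval holds lower as well as higher signal on the high-oleic diet, so no difference was detectable with this number of arrays. With live weight in the fit the sign turned, to 0.46 (95% interval -0.85 to 1.76), and within 109.5 to 118 kg the difference was -0.10. It was larger, at -1.34 (SE 0.56, limma adjusted p = 0.894), with the spiked signal as covariate. With the animal number as a block it was -0.91 (SE 0.34, limma adjusted p = 0.716).

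SULT2A1 signal was higher in heavier animals on average, with exceptions within the high-oleic diet. At fixed diet the slope, by which SULT2A1 was chosen, was 1.64 per 10 kg (SE 0.47), rank 12 by size among the 3255 slopes. The 3 lightest high-oleic animals, 1 at 104.5 kg, 8 at 106.5 kg and 2 at 107 kg, had 2.58, 5.42 and 3.50. Of the other high-oleic animals, 6 at 108.5 kg had 6.90, 4 at 109.5 kg had 6.02, 5 at 110 kg had 4.83, 3 at 111.5 kg had 5.17 and 7 at 116 kg had 6.05. The highest value of that diet was thus not in its heaviest animal. The 3 lightest control animals, 2 at 112 kg, 1 at 112.5 kg and 3 at 113 kg, had 4.86, 3.82 and 4.91. The 4 heaviest control animals, 7 at 115 kg, 4 at 117 kg, 6 at 118 kg and 5 at 133 kg, had 6.88, 5.96, 7.26 and 7.71. Every one of these 4 stood above the 3 lighter control animals. Among control animals weight mostly rose with animal number, though animal 7 weighed 115 kg. Among high-oleic animals it did so less clearly, with animal 6 at 108.5 kg and animal 8 at 106.5 kg. SULT2A1 was lowest in animal 1 of each diet. The spiked transcripts mostly rose with animal number too, from 5.19 in control animal 1 to 6.12 in control animal 7. They stood at 5.25 in high-oleic animal 1 and 7.29 in high-oleic animal 8. With the animal number as a block the slope was 1.01, and the part of number or spiked signal in it was not tested.

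The slope had the same sign within each diet. It was 2.29 (SE 1.03) among high-oleic animals and 1.46 (SE 0.54) among control animals. The difference between the diets was 0.84 (95% interval -1.60 to 3.27, limma adjusted p = 0.996) and did not pass the test. The common slope was 2.85 without control animal 5, 3.99 without that animal and high-oleic animal 7, and 2.83 between 109.5 and 118 kg. With any one of the other 14 animals left out, the slope stayed between 1.40 and 1.72.

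**Figure D2:**
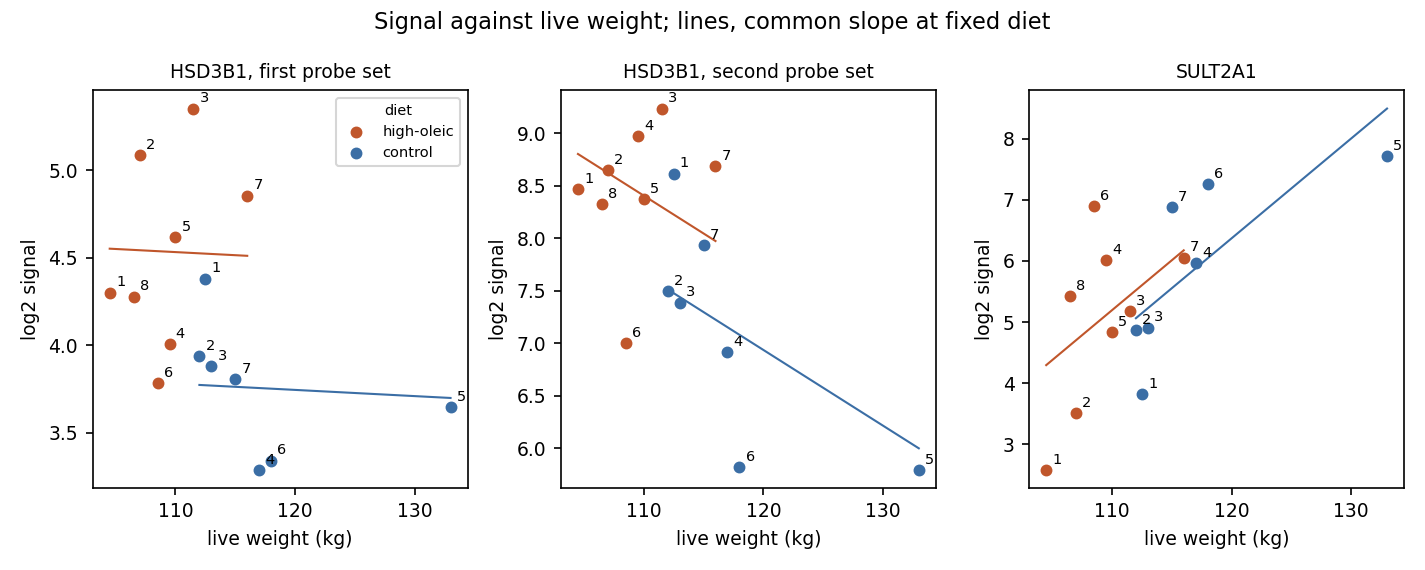
Log2 signal of the 3 probe sets against live weight in kg, 1 point per animal with its number, and the common slope at fixed diet as lines. The slope is 1.64 per 10 kg for SULT2A1, -0.72 for the second HSD3B1 probe set and -0.035 for the first, and control animal 5 at 133 kg lies far from the other weights.

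Markers of skeletal muscle, hepatocytes and adrenal cortex and gonad had mostly positive slopes on live weight as well. Of their probe sets 0 passed the test, and their part in the SULT2A1 slope was not tested. Of 20 skeletal muscle markers 10 were in the table, and all 12 of their probe sets had positive slopes with a median of 1.18, against 0.04 over all probe sets. The summed linear signal of the 10 genes ranged from 117 to 3766 in high-oleic animals and from 83.3 to 4833 in control animals. Of 16 hepatocyte markers 3 were in the table, ALB, APOC3 and TF, with 3 of 4 probe sets of positive slope and a median of 0.42. The summed signal of these 3 ranged from 71.1 to 331 in high-oleic animals and from 60.2 to 490 in control animals. Of 11 markers of adrenal cortex and gonad, STAR and LHCGR were in the table, and all 3 of their probe sets had positive slopes with a median of 0.46. Their summed signal ranged from 15.0 to 39.1 in high-oleic animals and from 24.3 to 45.2 in control animals. These sums are low, and STAR was under the tenth percentile of the array in 1 animal of each diet, so the slopes have little signal behind them. Markers of most other cell types had mostly negative slopes. Positive slopes were seen in 1 of 9 probe sets of smooth muscle and pericytes, 1 of 4 of endothelium and 0 of 6 of macrophages. The same held for 0 of 3 of lymphocytes and 0 of 3 of erythroid cells, against 3 of 4 of adipocytes. None of 24 markers of skin and sebaceous gland was in the table, and they were not analysed here.

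The 2 HSD3B1 probe sets followed each other across animals. Over the 15 animals Pearson's r was 0.805 and Spearman's rho 0.886, and without the 2 animals farthest from the median of the first probe set r was 0.791. HSD3B1 was chosen by its diet difference, which enters these pooled values, so they are a description with no test. Within the high-oleic diet r was 0.658 (exact permutation p = 0.0597), and within the control diet it was 0.787 (exact permutation p = 0.0373). After adjustment over 6 within-diet correlations of the 3 pairs of probe sets, both had p = 0.0991. Probe sets of one array share its RNA and hybridisation.

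The gap between the 2 probe sets, second minus first, was 4.97 at its highest, in high-oleic animal 4, and 2.15 at its lowest, in control animal 5. The first probe set was under the tenth percentile of the array in control animals 4, 5, 6 and 7, the 4 heaviest of that diet, so no slope of the gap on live weight is given. The gap was added after seeing the data.

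Across animals, SULT2A1 was on average lower where HSD3B1 was higher. Between SULT2A1 and the second HSD3B1 probe set r was -0.624 and rho -0.496, and without high-oleic animal 1 and control animal 5, the farthest from the SULT2A1 median, r was -0.537. For the first probe set r was -0.546 and rho -0.629, with r of -0.590 without those 2 animals. The members were chosen by a diet difference and by a weight slope, and weight differed between diets, so these pooled values follow in part from the choice and are given with no test. Within the high-oleic diet r was -0.336 for the second probe set and -0.349 for the first. Within the control diet r was -0.788 for the second and -0.726 for the first. SULT2A1 was chosen by its weight slope at fixed diet, and the second HSD3B1 probe set had a negative weight slope among control animals. The within-diet values are therefore not free of the choice either, and are given with no test. After diet and live weight were fitted out, r was -0.419 for the second probe set and -0.595 for the first.

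**Figure D3:**
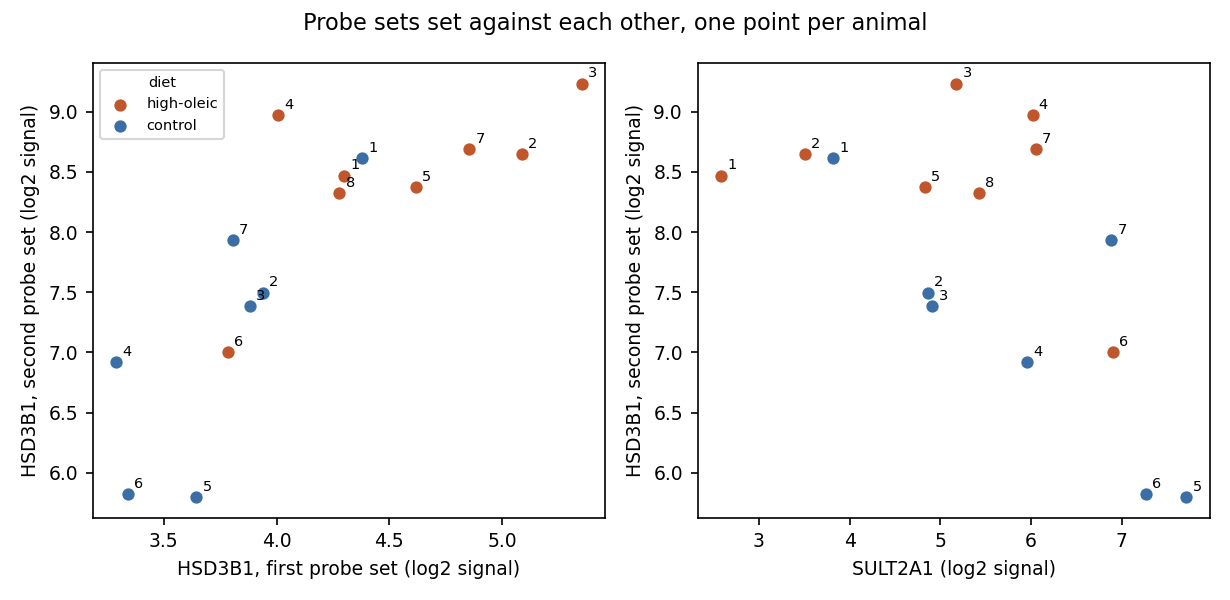
Log2 signal of the second HSD3B1 probe set against the first (left) and against SULT2A1 (right), 1 point per animal with its number. The left points climb together (r of 0.805), and in the right panel control animals 5 and 6 combine the highest SULT2A1 with the lowest HSD3B1.

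Among 1258 other named genes, those most like the brighter HSD3B1 probe set over the 15 animals were UCP3, BID and DHRS4. UCP3, a mitochondrial uncoupling protein, had r of 0.817 with it, or 0.680 for deviations from the diet means. BID, a mediator of apoptosis, had r of 0.799 (0.648 within diets), and DHRS4, a carbonyl reductase of the short-chain dehydrogenases, r of 0.767 (0.573 within diets). The most opposite were CKB, the brain-type creatine kinase, at -0.846 (-0.724 within diets) and CDH1, which encodes E-cadherin, at -0.804 (-0.766 within diets). DHRS4 lay between 9.39 and 10.11 in high-oleic animals and between 8.71 and 9.74 in control animals, and 6 of 8 high-oleic animals exceeded every control animal. CDH1 lay between 4.44 and 6.17 in high-oleic animals and between 4.24 and 7.46 in control animals. These are the most extreme of 1258 values, so r is a description.

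The genes most like SULT2A1 were SLC2A5, GPT and ACACA. SLC2A5, the fructose transporter, had r of 0.817 (0.805 within diets), GPT, the alanine aminotransferase, 0.812 (0.801 within diets), and ACACA, the acetyl-CoA carboxylase of fatty acid synthesis, 0.789 (0.810 within diets). These values were nearly as high or higher once the diet means were taken out, while those of the genes most like HSD3B1 fell. HSD3B1 was chosen by its diet difference and SULT2A1 was not. The contrast therefore follows in part from the choice and is a description only. SLC2A5 lay between 8.45 and 10.94 in high-oleic animals and between 9.61 and 11.50 in control animals. The most opposite were HSPB11, a small protein of intraflagellar transport, at -0.790 (-0.783 within diets) and MAT2A, which makes S-adenosylmethionine, at -0.746 (-0.716 within diets).

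Around the 2 enzymes, few steroid genes were in the table. Of 48 genes written for steroid hormone synthesis only HSD3B1 and STAR were measured, and of 23 for sulfonation and its reversal only SULT2A1. Measured here means found in the table by symbol, and 1773 of the 3255 tested probe sets have none. The others were not analysed here. STAR, which delivers cholesterol to the mitochondrial enzyme that opens steroid synthesis, had 4.33 ± 0.59 (SD, n = 8) on the high-oleic diet and 4.55 ± 0.53 (SD, n = 7) on the control diet. Its difference was -0.22 (95% interval -0.83 to 0.39) and its slope 0.19 per 10 kg (95% interval -0.40 to 0.79), with limma adjusted p of 0.999 and 0.921.

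Of 33 genes written for other steroid and skatole clearance, 6 were measured with 7 probe sets, and 6 of the 7 had higher means on the high-oleic diet. The median difference was 0.74, against -0.03 over all 3255 probe sets, and 0 of the 7 passed the test in either direction. CYP3A46, a pig cytochrome P450 of drug and steroid oxidation, lay between 11.49 and 12.51 in high-oleic animals and between 7.31 and 12.28 in control animals. Its difference of 1.25 (95% interval 0.17 to 2.33) leaned on control animals 3 and 4, at 7.31 and 9.81, since the other 5 control animals lay at 11.44 or more. CYP2B22, another xenobiotic P450, lay between 8.39 and 11.14 in high-oleic animals and between 6.11 and 10.33 in control animals. Its difference was 1.31 (95% interval 0.23 to 2.38), or 0.50 with live weight in the fit, and its slope was -1.01 per 10 kg (95% interval -1.95 to -0.07). Control animal 5 was its lowest animal, at 6.11, as it was for the second HSD3B1 probe set.

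CYP27A1, the mitochondrial sterol hydroxylase, differed by 0.74 and 0.77 on its 2 probe sets, and by 0.81 and 1.01 with live weight in the fit. CYP2A19, a pig liver enzyme of skatole breakdown, differed by 0.58 (95% interval -0.32 to 1.47), with high-oleic animals 3 and 4 highest at 11.66 and 11.45. CYP3A29, a relative of CYP3A46, was under the tenth percentile of the array in all 15 animals, and its difference of 0.30 has little signal behind it. EPHX1, the microsomal epoxide hydrolase, differed by -0.038 (95% interval -0.60 to 0.52). Limma's adjusted p between diets reached 0.999 for all 6 clearance genes, and 0.916 or more for their slopes.

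Of 26 steroid receptors and partners 4 were measured, and 0 passed the test for diet or live weight. NR3C1, the glucocorticoid receptor, differed by -0.29 (95% interval -0.79 to 0.22) and FKBP5, its co-chaperone and glucocorticoid-induced gene, by -0.07 (95% interval -0.61 to 0.46). HSP90AA1, the chaperone that holds steroid receptors ready, differed by 0.19 and RXRB, a retinoid X receptor, by 0.14. The largest slope of the 4 was that of RXRB, at -0.56 per 10 kg (95% interval -1.05 to -0.07, limma adjusted p = 0.916).

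**Figure D4:**
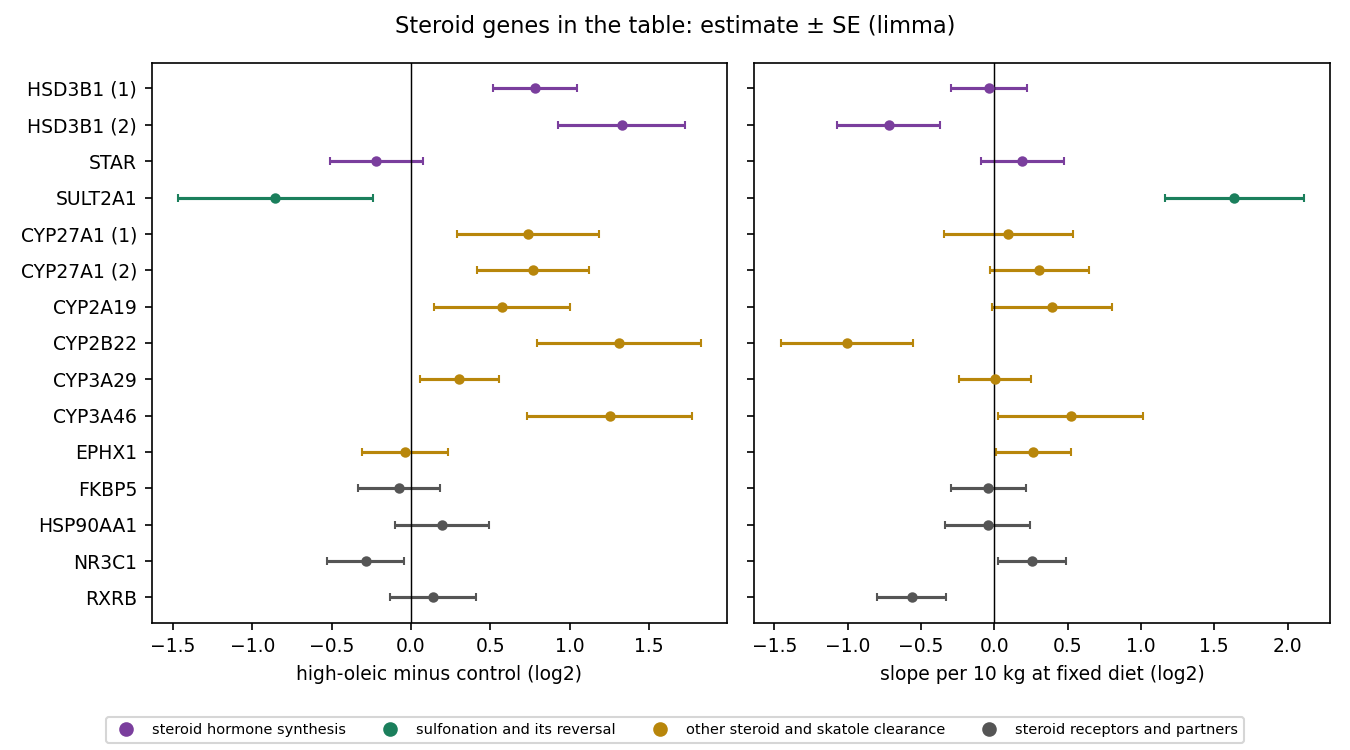
Diet difference (left, high-oleic minus control) and slope per 10 kg of live weight at fixed diet (right) of all 15 steroid probe sets in the table, as log2 estimates ± SE from limma, coloured by gene list. HSD3B1 and the 5 P450 genes lie to the right of 0 for diet, as do HSP90AA1 and RXRB by less, and SULT2A1 has the largest slope of the 15, at 1.64.

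With single animals left out, the HSD3B1 diet difference stayed between 1.10 and 1.57 on the second probe set and between 0.66 and 0.89 on the first. The SULT2A1 diet difference stayed between -1.20 and -0.50. Leaving out control animals 5 or 6 brought the second HSD3B1 probe set to its lower values, and leaving out control animal 1 to its highest.

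**Figure D5:**
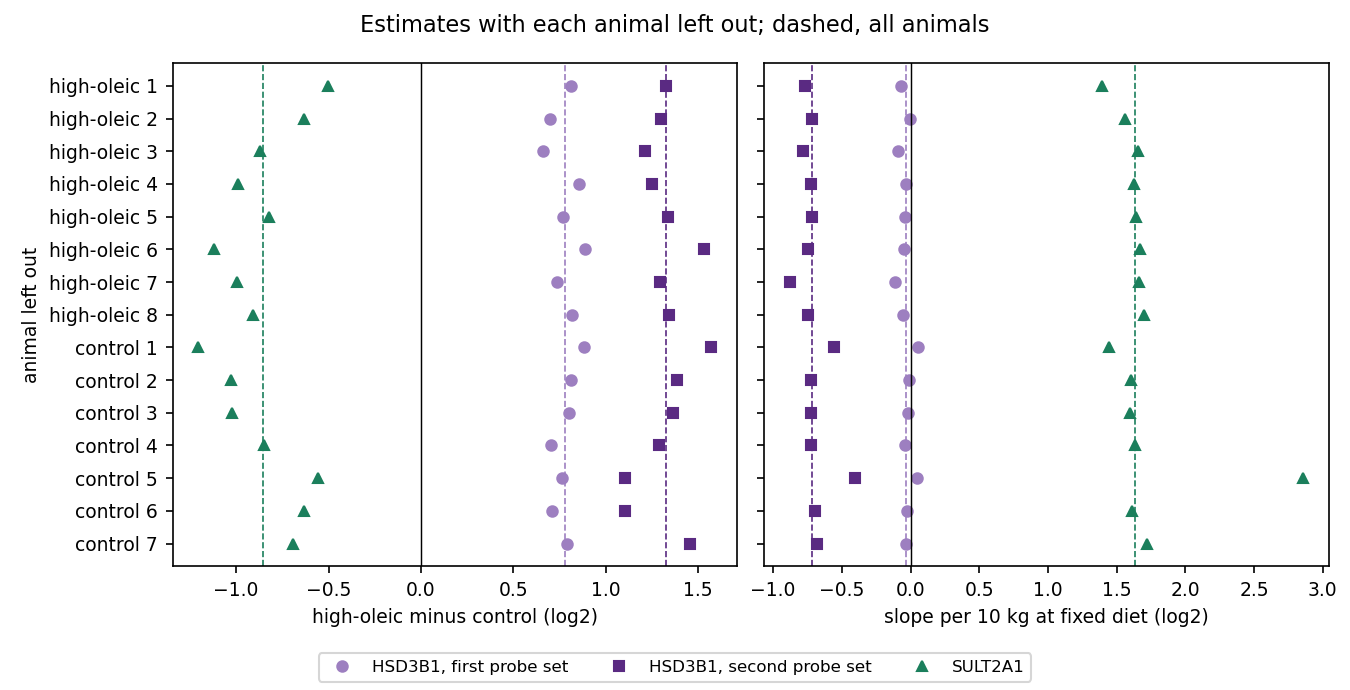
Diet difference (left) and slope per 10 kg at fixed diet (right) of the 3 probe sets with each animal in turn left out, and with all animals as dashed lines, on the log2 scale. The SULT2A1 slope lies at 2.85 without control animal 5 and between 1.40 and 1.72 otherwise.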

How the data were processed

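The authors deposited 1 table of log2 signals per probe set for 15 arrays. GCOS and GCRMA are named per the submitters' processing notes, with versions, roles and settings not given in the sources used here. No source states the scale: log2 without centring was inferred from the range of the deposited values, 1.49 to 14.36. The table held 3272 probe sets, and no source used here states how they were selected. Every rank, share and adjusted p-value is therefore relative to this set alone. From the 3272 probe sets 17 manufacturer's controls were left out. Of the 3255 tested, 1455 had 1 symbol, 27 several and 1773 none, from the platform annotation, updated by gene number through RefSeq's Sscrofa11.1 genes, from which no coordinates were taken.

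Diet, live weight slope and their product were fitted on the whole table with limma 3.58.1 in R 4.3.3, with two-sided p-values adjusted by Benjamini-Hochberg over all 3255 and called under 0.05. Single values used exact permutation over 6435 splits, and correlations within diets all orders of the animals. On simulated data with independent errors and 200 changed probe sets, the diet fit recovered 47.5% of differences of 1 and 96% of differences of 2. These are averages over probe sets of all spreads, at a set number of changes, and do not give the recovery for the 2 genes. The SE of the diet difference exceeded that of 97.8% of probe sets for SULT2A1 and 87.2% for the second HSD3B1 probe set.

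Members, gene lists and tests were chosen with earlier results of these data known. All probe sets of both genes and all measured list genes were named, with the 3 most and 2 least alike genes per brighter probe set. A list score is the mean deviation from the members' means over the 15 arrays. Replicates are animals. Alternatives were a filter on dim probe sets, a floor, quantile normalization, median centring, other variance models, array weights, control probe sets kept, the spiked signal as covariate, animals left out, a weight window, the animal number as a block and the mean of probe sets. Of the 7 shared animal numbers, deviations from the diet means correlated between -0.16 and 0.30, at 0.26 or more for numbers 1, 3, 5 and 6. Only control animals 3 and 6 were most like the high-oleic animal of their own number. With the number as a block, which leaves out high-oleic animal 8, SEs of the diet difference were smaller. They were 0.34 against 0.61 for SULT2A1 and 0.30 against 0.40 for the second HSD3B1 probe set. The main fits did not pair animals, and what a shared number stands for was not tested. The number of arrays limits the precision.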

Additional observations from a re-analysis of the deposited data

Results flagged for a closer look

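Each probe set of the steroid genes, live weight and the gap between the HSD3B1 probe sets were checked within each diet for a single animal set apart by a wide gap. Of 34 such checks 3 gave one, where chance gives about 1 in 20. The second HSD3B1 probe set stood at 7.00 in high-oleic animal 6, while the median of the other animals on that diet was 8.65. CYP3A29 stood at 3.26 in control animal 6, while the median of the other control animals was 2.52, and all animals were under the tenth percentile of their array. Control animal 5 weighed 133 kg, while the median of the other control animals was 114 kg.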

How the results depend on the processing

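The HSD3B1 diet difference, by which the gene was chosen, stayed positive under all 30 alternatives for each probe set. It lay between 0.75 and 1.57 for the second and between 0.58 and 1.05 for the first, where 1.05 is that of the mean of both probe sets. The filter on dim probe sets, the other variance models and the control probe sets kept could change only its SE. That of SULT2A1 turned to 0.46 with live weight in the fit and to 0.99 also without control animal 5, a fit added after seeing the data. Otherwise it stayed negative, down to -1.34 with the spiked signal. The slope of the first HSD3B1 probe set, -0.035, turned to 0.075 with a floor, 0.037 with array weights, 0.044 with the spiked signal, 0.075 without the 3 arrays that stood apart and 0.15 with the replicate block, and ranged from -0.11 to 0.052 with single animals left out. That of the second stayed negative, between -1.62 in the weight window and -0.38. The SULT2A1 slope stayed positive, at 2.83 in the weight window, 3.99 without the heaviest animal of each diet, 1.01 with the replicate block and 1.40 to 2.85 with single animals left out. The slope difference of SULT2A1 between diets was -0.82 without those 2 heaviest animals and ranged from -2.13 to 2.14 with single animals left out. Leaving out single animals moved r of SULT2A1 between -0.69 and -0.52 with the second HSD3B1 probe set and between -0.62 and -0.46 with the first. The count of probe sets past the threshold, 0 for diet, live weight and the slope difference, was 1 for diet with the spiked signal, 1 for live weight without the 3 arrays that stood apart or without a diet term, and 0 to 5 for live weight and the slope difference with single animals left out. The cause was not tested for any of these. The replicate block changed no other call. The first HSD3B1 probe set, with 5 of 15 values under the tenth percentile of the array, carries the least signal.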
